A study of Mus musculus with 6 samples.

Results

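The MHC class II presentation genes described here are 10 listed genes, taken from the 20279 gene symbols of 6 mouse single-cell count matrices. They are Cd74, H2-Aa, H2-Ab1, H2-Eb1, H2-DMa, H2-DMb1, H2-DMb2, H2-Oa, H2-Ob and Ciita, and all 10 are in all 6 libraries. Each gene's level was read in B, T, NK, myeloid, dendritic and plasma cells, which were gated by raw counts of other marker genes. No member was used in a gate.

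The tissue label of all libraries is spleen, the mice were females of 10 weeks, and their strain is C57BL/6 by the series text. No genotype or in vivo treatment was compared. The study set 3 ways of making cDNA in droplets side by side, with 2 libraries each. The 3′ libraries capture transcripts from the poly(A) end with the 10x Genomics 3′ kit, and the standard 5′ libraries tag the other end with the 5′ kit. The modified 5′ libraries had 1 µl of 10 mM dNTP added at reverse transcription and at cDNA amplification. Their extension times were 2 h in place of 45 min and 3 min in place of 1 min. All cDNA was left unfragmented and read on nanopore flow cells. The labels do not say whether the libraries of a protocol came from separate mice, so p-values measure only the spread between these libraries, which may be technical. For replicate 2 the protocol text speaks of islets of the pancreas and of depleting insulin cDNA, against the spleen label. A list of 7 endocrine pancreas genes was at 0 in 5 libraries and reached 37.1 CPM in modified 5′ replicate 2, while T and B markers were abundant in all 6.

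Libraries held 723341 to 2627253 counts and 861 to 4045 kept cells. A cell was kept with 200 or more genes and no more than 20% of its counts mitochondrial. Levels are in CPM, a gene's counts scaled to an equal total for each library and gate. Standard 5′ replicate 1 was unlike the others: 34.0% of its barcodes passed, with a median of 332 counts per cell, against 482.5 to 606 elsewhere. The gates took 70.9% to 84.2% of kept cells. B-gated cells numbered 320 to 1817 per library, T-gated cells 270 to 995, myeloid-gated cells 13 to 101, conventional dendritic cells 2 to 37 and plasmacytoid dendritic cells 1 to 12. Erythroid transcripts, a list of 7 genes found, were at 39697 to 69708 CPM in the replicate 1 libraries and 492 to 1462 CPM in the replicate 2 libraries.

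MHC class II molecules carry peptides from endosomes to the surface of antigen-presenting cells, where CD4 T cells read them. The alpha and beta chains assemble on the invariant chain, which blocks the groove and is then cut down to a peptide called CLIP. The DM heterodimer exchanges CLIP for other peptides, and the DO heterodimer inhibits DM. CIITA, a coactivator that binds no DNA itself, assembles on factors held at the X and Y boxes of class II promoters. In C57BL/6 mice I-A is the class II molecule at the surface, because the alpha chain of I-E is not made. H2-Aa and H2-Ab1 encode the I-A chains, H2-Eb1 the I-E beta chain, H2-DMa with H2-DMb1 and H2-DMb2 the chains of DM, H2-Oa and H2-Ob those of DO, and Cd74 the invariant chain.

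Promoters from RefSeq (GRCm38.p6), which span 250 bases before to 50 after a start, were used for 7 members with 8 windows. Cd74, H2-Ab1 and Ciita were not among the members searched. The shares of members below therefore cover a selected part of the list and say nothing of those genes. The letters TGATTGG, the core of the Y box, were found on either strand in windows of 6 of these 7 members, H2-DMa being the exception. In all, 7.82% of 32851 promoters hold these letters. The X box letters searched, AAC, any 2 bases and ATGATG, were found on either strand in 4 of the 7 members and in 0.137% of all promoters. Both sets of letters were settled after the members' promoters had been read, and they do not overlap. A match is a description of letters, not a bound site. The stretches that end at the Y letters are shown because these genes are the ones followed together below. They are written 5′ to 3′ on the gene's strand, and capitals mark the X and Y letters. They are chr17:34092284-34092340 (H2-Oa, plus strand), chr17:34145107-34145163 (H2-DMb2, plus), chr17:34153105-34153134 (H2-DMb1, plus), chr17:34238796-34238852 (H2-Ob, plus), chr17:34287867-34287923 (H2-Aa, minus) and chr17:34305756-34305812 (H2-Eb1, plus). The H2-DMb1 stretch is shorter and opens with the end of the X letters.
H2-Oa: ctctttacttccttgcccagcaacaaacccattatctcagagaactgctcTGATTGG
H2-DMb2: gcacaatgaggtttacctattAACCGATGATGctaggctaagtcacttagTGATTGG
H2-DMb1: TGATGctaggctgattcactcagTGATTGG
H2-Ob: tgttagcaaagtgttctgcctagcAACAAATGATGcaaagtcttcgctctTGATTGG
H2-Aa: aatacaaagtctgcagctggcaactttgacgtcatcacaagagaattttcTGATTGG
H2-Eb1: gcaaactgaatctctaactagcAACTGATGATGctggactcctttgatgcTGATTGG

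In the GENCODE annotation of GRCm38, the H2 members lie on chromosome 17, from H2-Oa (start 34092340) to H2-Eb1 (end 34316674). Cd74 lies on chromosome 18 at 60803848 to 60812652 and Ciita on chromosome 16 at 10480059 to 10528418.

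Cd74, the invariant chain, was higher in B-gated than in T-gated and NK-gated cells in every library. In B-gated cells it stood at 14301, 33734 and 32392 CPM in the replicate 1 libraries (3′, standard 5′ and modified 5′) and at 19206, 40608 and 34785 CPM in the replicate 2 libraries. In T-gated cells the same libraries gave 303, 130 and 68.6 CPM, then 46.1, 131 and 53.9 CPM. Conventional dendritic cells gave 23387, 30161 and 48690 CPM, then 24501, 47054 and 43142 CPM. Plasmacytoid dendritic cells ranged from 8104 to 24873 CPM, myeloid cells from 4103 to 13026 CPM and plasma cells from 2108 to 11468 CPM. NK cells held 0 to 3 Cd74 counts per library. The B and T values did not overlap, nor did the B and NK values. By median over the libraries, the order from high to low was conventional dendritic, B, plasmacytoid dendritic, plasma and myeloid, then T and NK. Neighbours in that order overlapped, except myeloid and T cells.

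**Figure D1:**
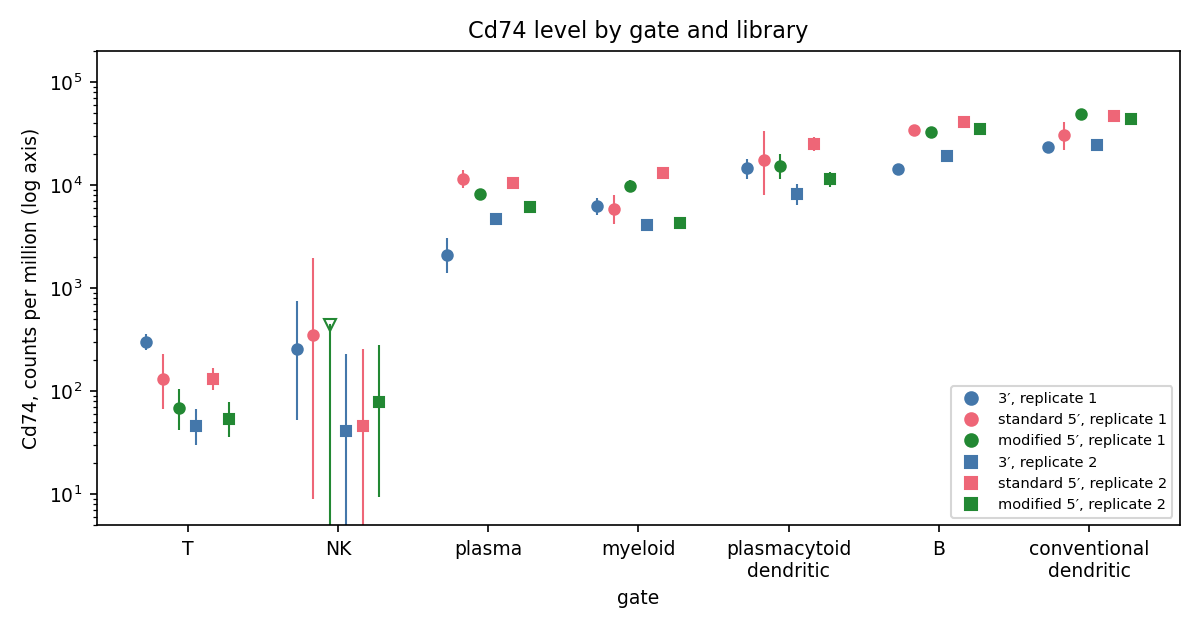
Cd74 in CPM (log axis) for each gate and library; points are libraries, coloured by protocol, and bars are exact 95% Poisson intervals, which cover counting error only. The open triangle is the upper end of the interval of a library with 0 counts. T-gated libraries sit between 46.1 and 303 CPM and B-gated libraries between 14301 and 40608 CPM.

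To ask how many cells show the gene at equal depth, each cell was thinned to 200 counts. In B-gated cells 92.6% to 99.6% had a Cd74 count after thinning and 99.7% to 100% before it. In T-gated cells the shares were 0.773% to 2.49% after thinning and 2.51% to 5.37% before it. Median depths before thinning were 339 to 555 counts in B-gated and 302 to 700 in T-gated cells. A Cd74 count in T-gated cells was read as background, since T cells are the gate that should lack the gene.

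B-gated cells were tested against T-gated cells with edgeR's quasi-likelihood test (library as a block, Benjamini-Hochberg adjustment over 6882 genes). Only Cd74 and H2-DMa had enough counts in T-gated cells to pass the filter on low counts without B cells. No count of calls is therefore given. For Ciita, H2-DMb1 and H2-DMb2, with 0, 2 and 14 counts in T-gated cells, the direction was fixed beforehand. That test called 40.8% of all genes, 21.5% higher and 19.3% lower. The log2 fold was 7.95 ± 0.18 (SE) for Cd74, 8.05 ± 0.14 for H2-Aa, 8.12 ± 0.13 for H2-Ab1 and 7.94 ± 0.14 for H2-Eb1. Cd74 had an adjusted p-value of 1.04e-47. The fold was smaller for H2-DMa, a chain of DM, at 3.56 ± 0.10, and for the DO genes H2-Oa and H2-Ob, at 4.57 ± 0.13 and 4.48 ± 0.12. Ciita, the coactivator, had 863 counts in B-gated and 0 counts in T-gated cells over the 6 libraries. Set against a floor of 3 counts over all T-gated cells, its level was at least 170-fold higher in B cells. H2-DMb1 had 2 counts in T-gated cells, a B to T ratio of 267 with a 95% counting interval of 73.8 to 2211. H2-DMb2 had 14 counts there, and its log2 fold was 7.56 ± 0.16. Cd74 and H2-DMa stayed called under each of 13 alternatives.

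The level left in T-gated cells was not the same share of the B level for every member. For Cd74 it was 0.155% to 2.12% of the B level, with a median of 0.281%. The medians of H2-Aa, H2-Ab1 and H2-Eb1 lay close to it, at 0.268%, 0.285% and 0.303%. H2-DMa kept 6.58% to 14.6%, H2-Oa 3.36% to 8.03% and H2-Ob at least 2.94%, with a median of 3.99%. The ranges of those 3 genes did not overlap that of Cd74. For a list of 18 B-cell transcripts used for comparison, the median share per library ran from 0% to 0.615%. Igkc, the kappa light chain, kept 0.441% and Ighd, the delta heavy chain, 0.565%, by their medians over libraries. Some members of that list were higher, such as Ighm, the mu heavy chain, at 9.74% and Cd37, a tetraspanin, at 17.2%. On the other strand, H2-DMa overlaps Brd2, H2-Oa overlaps BC051537, H2-Eb1 overlaps Gm20513 and Ciita overlaps Dexi, while no overlap is annotated for H2-Ob. The use of strand in counting is not stated. The part of such neighbours in these values was not tested.

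**Figure D2:**
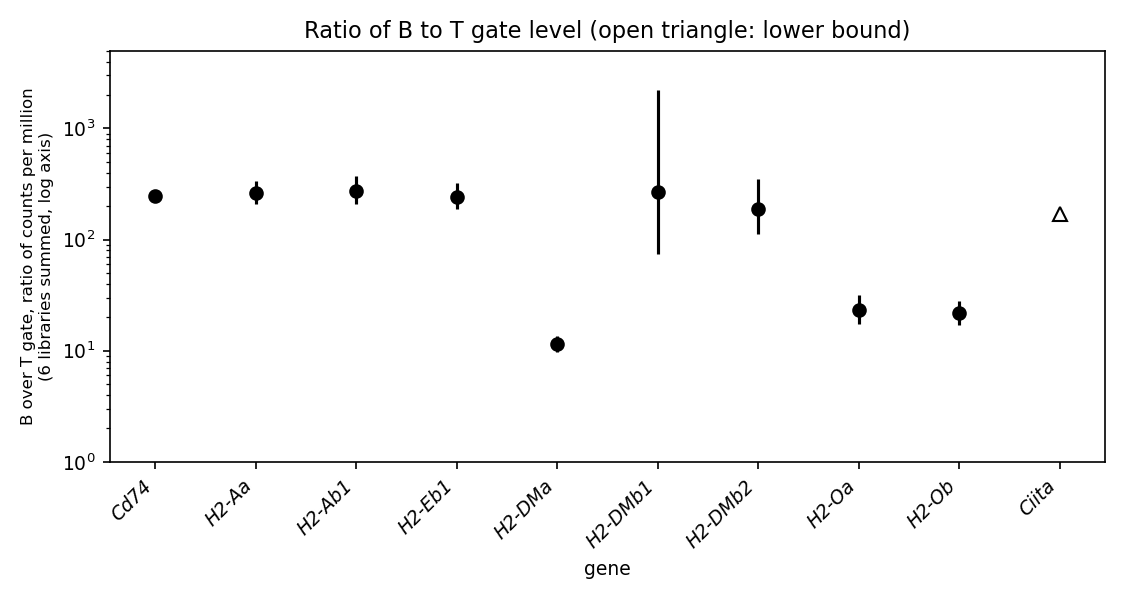
Ratio of the level in B-gated to that in T-gated cells (log axis) for each member, from counts summed over the 6 libraries; bars are exact 95% intervals for counting error. The open triangle is the lower bound of at least 170 for Ciita, and H2-DMa, H2-Oa and H2-Ob lie at 11.5, 23.2 and 21.7, below the other ratios.

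NK-gated cells, 10 to 50 per library, also carried few class II counts. Summed over the 6 libraries they held 8 Cd74 counts, 6 H2-DMa counts and 0 counts of H2-DMb2, H2-Oa, H2-Ob and Ciita. In the test of B against NK cells 39.4% of 1117 genes were called (24.5% higher, 14.9% lower). The log2 fold was 8.60 ± 0.23 for Cd74 and 3.68 ± 0.39 for H2-DMa. The other members had 0 to 2 counts in NK cells. Every member tested, Cd74 and H2-DMa included, could pass the filter on low counts only through B cells. Their direction was therefore fixed beforehand, and no p-value or count of calls is given. Against a floor of 3 counts over all NK cells, H2-DMb2 was at least 34.6-fold, H2-Ob at least 20.3-fold and H2-Oa at least 14.1-fold higher in B cells. Ciita was not tested and lay at least 6.61-fold higher in B cells.

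Among conventional dendritic cells, the classical chains were higher and one DM beta gene and one DO gene were lower than in B cells. H2-Ab1 in conventional dendritic cells measured 10504, 12318, 14454 and 12207 CPM in the 4 libraries with at least 10 such cells (3′ replicates 1 and 2, standard 5′ replicate 2 and modified 5′ replicate 2). B-gated cells of those libraries gave 3456, 5181, 7576 and 6599 CPM. The dendritic value was above the B value of its own library by 1.85 to 3.04 times. H2-DMb2 ran the other way, with 0, 482, 314 and 255 CPM in dendritic cells against 570.5, 681, 1549.8 and 1430.4 CPM in B cells. H2-Ob, the DO beta chain, gave 0, 268, 196 and 109 CPM against 500.5, 648, 722 and 635 CPM.

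In the test of B against conventional dendritic cells, 15.5% of 5443 genes were called (10.3% higher, 5.14% lower in B cells). H2-DMb2 and H2-Ob, without a count in dendritic cells of 3′ replicate 1, could pass the filter on low counts only through B cells. No count of members higher is therefore given, and 4 members were called lower. The median log2 fold was -0.28 over the members and 0.44 over all genes. The log2 fold was 2.01 ± 0.29 for H2-DMb2 and 2.16 ± 0.35 for H2-Ob. The members called lower in B cells were H2-Aa (-0.49 ± 0.18, edgeR adjusted p = 0.043), H2-Ab1 (-0.86 ± 0.18, 3.05e-05), H2-Eb1 (-0.69 ± 0.18, 0.00191) and H2-DMb1 (-1.24 ± 0.28, 0.000141). Cd74 (-0.09, 95% interval -0.43 to 0.25), H2-DMa (0.32, -0.17 to 0.82), H2-Oa (0.35, -0.23 to 0.93) and Ciita (-0.48, -1.13 to 0.18) did not pass. Trimmed-mean scaling adds 0.31 to the log2 folds of CPM values here. As plain CPM ratios of dendritic over B cells, Cd74 was at 1.16 to 1.64 in the 4 libraries. Over 10 alternatives the log2 folds of H2-DMb2 and H2-Ob ranged from 1.70 to 2.81 and from 1.95 to 3.11. The calls of the 4 members lower in B cells were lost without a filter on low counts and without the 5% of cells with the most counts, and 3 of the 4 with a gate minimum of 3 counts. Dendritic cells of these libraries had medians of 814 to 1369 counts. Leaving out any one of the 4 libraries ended the call of H2-Aa (-0.47 to -0.42), and leaving out any but 3′ replicate 1 ended that of H2-Eb1 (-0.72 to -0.59).

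The pair of genes for the DM beta chain divided by cell type. H2-DMb1 made up 13.0% to 28.3% of the H2-DMb1 and H2-DMb2 counts in B-gated cells, by library. Over all libraries it was 907 of 5422 counts, or 16.7% (exact 95% interval 15.7% to 17.7%). In conventional dendritic cells the share was 73 of 108 counts, or 67.6% (57.9% to 76.3%). Each library gave 56.1% or more, on 2 to 41 counts per library. The interval of that lowest share was 39.7% to 71.5%. It was 69.0% (52.9% to 82.4%) in myeloid cells, 80.0% (59.3% to 93.2%) in plasmacytoid dendritic cells and 28.9% (15.4% to 45.9%) in plasma cells. These intervals cover counting error only, and no test over libraries was made of the share. The share in B cells also moved with protocol, from 23.6% and 28.3% in 3′ to 13.0% and 13.4% in standard 5′ and 13.3% and 15.8% in modified 5′. The longest coding transcripts of the pair are 1404 and 1483 nt long. Of runs of 31 bases in the first 500 nt of the H2-DMb1 transcript, 29.1% are also found in H2-DMb2, and in the last 500 nt 25.3% are. Of those in the last 500 nt of H2-DMb2, 0.851% are found in H2-DMb1, and 25.7% in at least one of 721 genes, H2-DMb1 included. How reads in such stretches were assigned is not stated, and the split between these genes is uncertain.

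**Figure D3:**
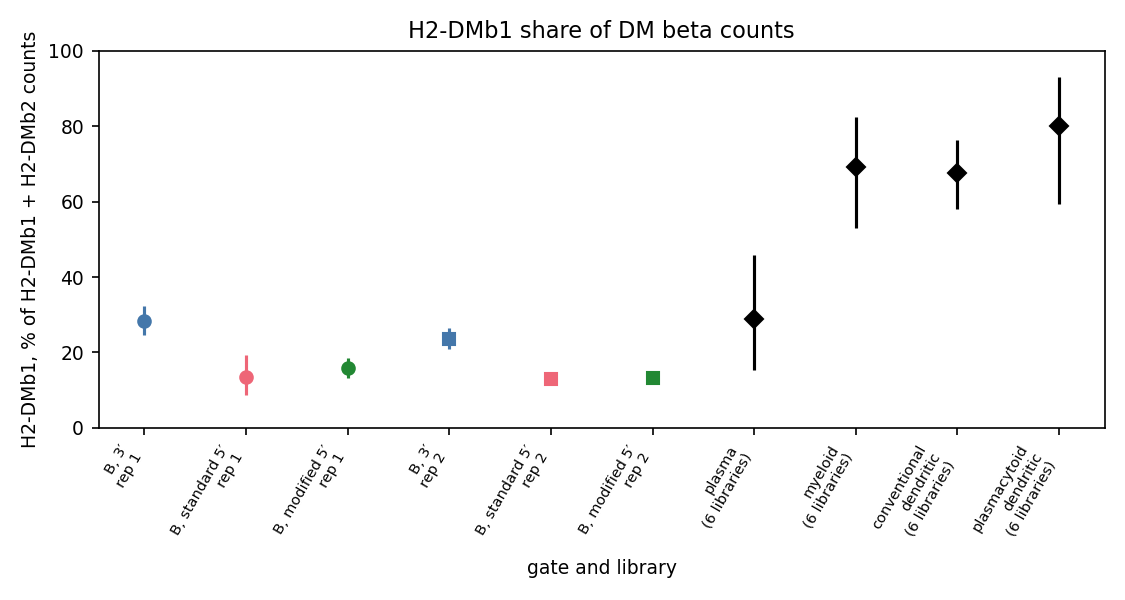
H2-DMb1 as a percentage of the summed H2-DMb1 and H2-DMb2 counts, by library in B-gated cells (coloured by protocol) and over 6 libraries in 4 other gates (black); bars are exact 95% binomial intervals. The B values run from 13.0% to 28.3%, and the myeloid and both dendritic gates lie at 67.6% to 80.0%.

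Plasmacytoid dendritic cells were too few for a test, with 2 libraries holding 10 or more. H2-Aa ranged over the 6 libraries from 3674 to 8138 CPM and H2-Ab1 from 2276 to 7216 CPM. H2-DMa ranged from 289 to 1942 CPM on 1 to 16 counts per library, below the B level of the same library in 3′ and modified 5′ replicate 1 and above it in the other libraries. H2-Ob had 0 counts in 37578, at least 8.04-fold below B cells by the floor of 3 counts.

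Myeloid-gated cells were a mixed gate with less class II RNA. By library, 30.8% to 52.5% of them had a Cd74 count. In the cells that had one, Cd74 stood at 8177 to 22494 CPM. In the test of B against myeloid cells 49.4% of 1618 genes were called (25.5% higher, 24% lower in B cells). Cd74 differed by a log2 fold of 2.12 ± 0.20 (edgeR adjusted p = 6.21e-24). Members other than Cd74 and the 3 classical chains had too few myeloid counts to pass the filter on low counts without B cells. No count of calls is therefore given. The largest folds were those of H2-Ob (log2 4.45 ± 0.36) and H2-DMb2 (4.09 ± 0.28). H2-Ob had 0 to 3 and H2-DMb2 0 to 6 myeloid counts per library. H2-DMb1 was not called (0.66, 95% interval 0.07 to 1.25, edgeR adjusted p = 0.0563). It was called under 5 of 13 alternatives, with log2 folds from 0.43 to 1.23 over all 13. Without standard 5′ replicate 2 it passed at 1.16. Neutrophil transcripts, a list of 7 genes, lay between 0 and 22000 CPM in this gate and erythroid transcripts between 65.6 and 145783 CPM. With cells holding a neutrophil count left out, an alternative added after the data were seen, Cd74 was at 4498 to 13424 CPM in place of 4103 to 13026 CPM. The part of erythroid transcripts was not tested.

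Plasma-gated cells, which secrete antibody, had lower class II levels than B-gated cells. The plasma gate allowed B-marker counts, and the list of 4 B markers lay at 234 to 2740 CPM in it. In B-gated cells that list lay at 7349 to 13609 CPM. The part of barcodes with both B and plasma RNA was not tested. In the test over 4 libraries 24.9% of 4237 genes were called (14.8% higher, 10.1% lower in B cells). H2-DMa, H2-DMb1, H2-Oa and Ciita could pass the filter on low counts only through B cells, so no count of calls is given. The log2 fold of B over plasma cells was 1.28 ± 0.21 for Cd74 (edgeR adjusted p = 4.62e-08) and 2.34 ± 0.23 for H2-Aa (3.07e-23). For Ciita it was 2.81 ± 0.56. H2-Oa had 2 counts and Ciita 4 counts in all plasma-gated cells, so that their folds rest on few counts. Trimmed-mean scaling adds -0.87 to the log2 folds of CPM values here. Plasma cells were deeper, at medians of 1794 to 3920 counts, and the part of depth was not tested.

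The share of B-gated counts that was class II differed between the libraries of the protocols. Summed, the 10 members made up 2.71% and 3.75% of B-gated counts in 3′, 5.67% and 7.01% in standard 5′ and 5.50% and 6.12% in modified 5′. The 3′ and 5′ values did not overlap.

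**Figure D4:**
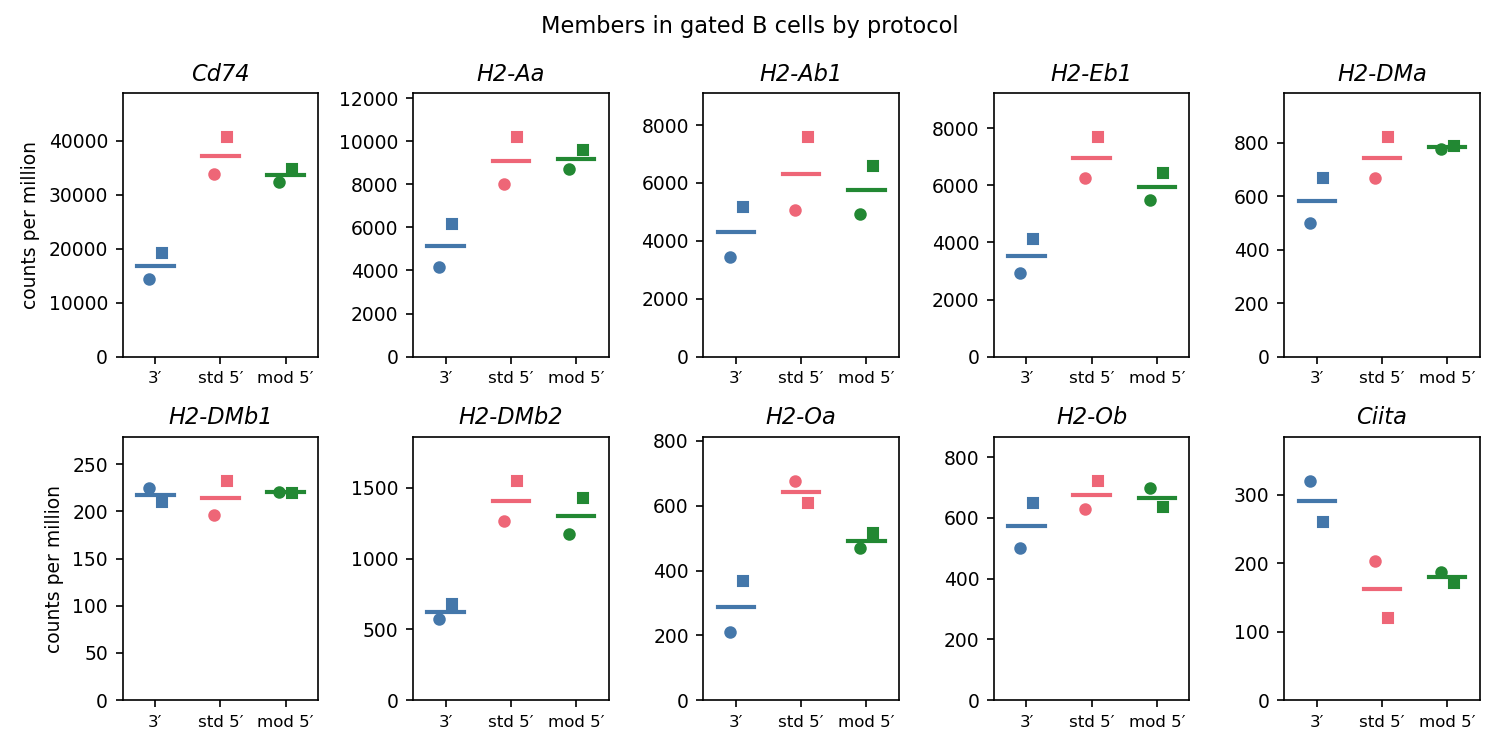
Level in CPM of each member in B-gated cells by protocol; circles are replicate 1, squares replicate 2, and bars the mean of 2 libraries. Cd74 lies at 14301 and 19206 CPM in 3′ and at 32392 to 40608 CPM in both 5′ protocols, while Ciita lies at 260.1 and 320.2 CPM in 3′ and at 119.7 to 204 CPM in both 5′ protocols.

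Of the classical chains in B-gated cells, H2-Aa measured 4144 and 6147 CPM in 3′, 7989 and 10175 CPM in standard 5′ and 8693 and 9603 CPM in modified 5′. H2-Eb1 measured 2918 and 4129 CPM, then 6253 and 7674 CPM, then 5482 and 6410 CPM. For both genes all 5′ libraries lay above both 3′ libraries. H2-Ab1 measured 3456 and 5181 CPM, then 5071 and 7576 CPM, then 4916 and 6599 CPM, so that its groups overlapped. Among the DM and DO genes, H2-DMb2 gave 570.5 and 681 CPM, then 1264 and 1549.8 CPM, then 1176 and 1430.4 CPM. H2-Oa gave 210.02 and 368 CPM, then 677 and 609 CPM, then 469.9 and 515 CPM. Neither gene's 3′ values overlapped its 5′ values. H2-DMb1 stayed within 196 to 232 CPM in all 6 libraries and H2-Ob within 500.5 to 722 CPM. H2-DMa gave 500.5 and 667 CPM in 3′ and 668 to 820.1 CPM in both 5′ protocols. Ciita gave 320.2 and 260.1 CPM, then 204 and 119.7 CPM, then 188 and 171 CPM, with both 3′ libraries above all 5′ libraries.

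In the test of standard 5′ against 3′ B cells, 7 members were higher and Ciita was lower, where 29.1% of 8818 genes were called (13% higher, 16% lower). The median log2 fold was 0.96 over the members and -0.09 over all genes. The folds were 1.42 ± 0.18 for Cd74 (edgeR adjusted p = 2.19e-07), 1.45 ± 0.24 for H2-DMb2 (1.91e-05), 1.40 ± 0.25 for H2-Oa (6.28e-05) and 1.25 ± 0.21 for H2-Eb1 (3.16e-05). They were 1.09 ± 0.21 for H2-Aa (0.000152), 0.83 ± 0.22 for H2-Ab1 (0.00532), 0.64 ± 0.24 for H2-DMa (0.0396) and -0.73 ± 0.26 for Ciita (0.0344). H2-DMb1 (0.29, 95% interval -0.19 to 0.78) and H2-Ob (0.51, 0.04 to 0.99) did not pass. Trimmed-mean scaling adds 0.29 to the log2 fold of CPM values here. As plain CPM ratios within replicate 1 and replicate 2, Cd74 was 2.36 and 2.11 times as high in standard 5′, and Ciita 0.638 and 0.462 times. Cd74, H2-Eb1, H2-DMb2 and H2-Oa passed under each of 14 alternatives. Without standard 5′ replicate 2 the calls of H2-Aa (0.85), H2-Ab1 (0.44), H2-DMa (0.41) and Ciita (-0.29) were lost, and without 3′ replicate 1 those of H2-DMa (0.52) and Ciita (-0.51). H2-DMa was also lost without either modified 5′ library (0.63 each, adjusted p = 0.0515 and 0.0587), and H2-Ob passed without 3′ replicate 2 (0.70). H2-Ab1 and H2-DMa did not pass in cells with at least 300 genes (0.61 and 0.48), and Ciita did not in DESeq2 (-0.67), with no filter on low counts (-0.61) or with a gate minimum of 3 counts (-0.61).

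Modified 5′ against 3′ gave 7 members higher and 0 lower, where 27.2% of genes were called (12.3% higher, 14.8% lower). The called members were Cd74 (1.29 ± 0.18, edgeR adjusted p = 1.38e-06), the 3 classical chains (0.70 to 1.11), H2-DMa (0.70), H2-DMb2 (1.34) and H2-Oa (1.04). Ciita stood at -0.41 (95% interval -0.89 to 0.06). Trimmed-mean scaling adds 0.30 to the log2 fold of CPM values in this comparison. H2-Ab1 and H2-DMa were lost without 3′ replicate 1 (0.51 and 0.59) or modified 5′ replicate 2 (0.50 and 0.72), and H2-DMa without modified 5′ replicate 1 (0.71). Both comparisons share the 3′ libraries. Modified against standard 5′ gave 0 of 10 members called, where 0.0227% of genes were called, and 0 members had an unadjusted p under 0.05 in edgeR. DESeq2 called 0 of all genes. The intervals of the log2 difference were -0.49 to 0.22 for Cd74, -0.39 to 0.44 for H2-Aa and -0.86 to 0.14 for H2-Oa, and their widths show which sizes could not be told from 0. On simulated counts for the B-gated comparison of standard 5′ with 3′, 43% of genes changed by 1 on the log2 scale were found, and 99% of those changed by 2.

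**Figure D5:**
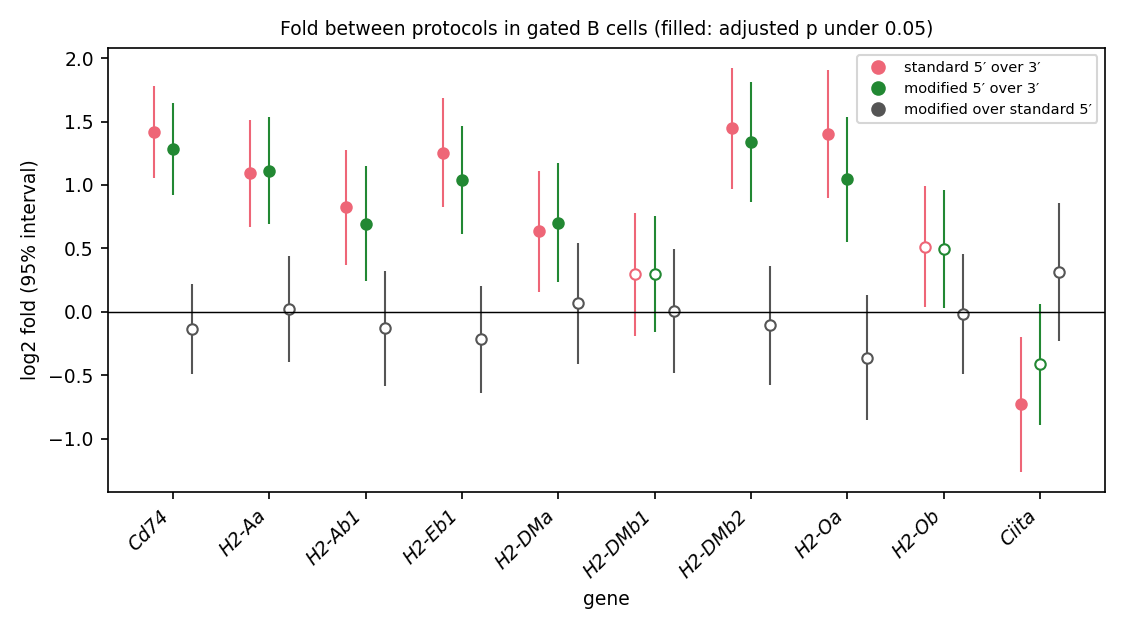
Log2 fold between protocols in B-gated cells for each member, with 95% intervals from edgeR; filled points passed an adjusted p of 0.05. Standard and modified 5′ lie above 3′ for Cd74 (1.42 and 1.29), and modified over standard 5′ lies between -0.36 and 0.32.

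Over all kept cells, where the share of B cells and the RNA per B cell cannot be told apart, the protocols were compared in the same way. Standard 5′ against 3′ gave 5 members higher and 1 lower, where 23.3% of genes were called (12.5% higher, 10.8% lower), and modified 5′ against 3′ gave 6 higher, where 18.4% were called (10.2% higher, 8.19% lower). Modified against standard 5′ gave 0 members at an adjusted p of 0.05, where 0% of genes were called. The log2 fold of Cd74 was 1.42 ± 0.25 (edgeR adjusted p = 0.0059) for standard 5′. Trimmed-mean scaling adds 0.39 to the log2 fold of CPM values there, and 0.36 for modified 5′ against 3′. As plain CPM ratios within replicate 1 and replicate 2, Cd74 was 2.06 and 2.06 times as high in standard 5′ over all cells. Without standard 5′ replicate 2, 0 members passed in that comparison (Cd74 1.18, adjusted p = 0.0884), and without modified 5′ replicate 2, 0 passed in the other. With the replicate number as a block, which also separates libraries by their protocol text and erythroid level, H2-Ab1, H2-DMa and H2-Ob passed too in standard 5′ against 3′, as did H2-Ab1 (adjusted p = 0.00145) and H2-Ob (0.0211) in modified 5′ against 3′. Called genes then rose from 2689 to 4127 for standard 5′, from 2124 to 3820 for modified 5′ and from 0 to 21 between the 5′ protocols. B-gated cells made up 37.2% to 52.1% of kept cells.

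The fold between B and T cells was compared between protocols in a gate by protocol interaction. For Cd74 the fold was larger in standard 5′ than in 3′ by 1.51 ± 0.20 on the log2 scale (edgeR adjusted p = 7.48e-11), and it was the 1 member called, where 0.113% of 8837 genes were called (0.0566% in each direction). One T-gated cell of 3′ replicate 1 held 92 of that library's 123 Cd74 counts in T-gated cells. Without cells of 5 or more Cd74 counts that library's level in T cells was 76.6 CPM in place of 303 CPM. The difference was then 0.77 (adjusted p = 0.814, an alternative added after the data were seen), and without 3′ replicate 1 it was -0.42 (adjusted p = 1). It did not pass without standard 5′ replicate 2 (1.41, adjusted p = 0.443) or in cells with at least 300 genes (1.62, adjusted p = 1). Without 3′ replicate 2 it was 2.71, and H2-Aa (2.41), H2-Ab1 (2.27) and H2-Eb1 (2.68) passed with it. Between modified and standard 5′ 0 members were called in edgeR, where 0% of genes were called, and 2 had an unadjusted p under 0.05.

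Other genes of the pathway were followed through a list of proteases, transcription factors, costimulatory and turnover genes, of which 25 were tested in the protocol comparisons. In B cells 7 were higher and 2 lower in standard 5′ than in 3′, beside 13% and 16% of all genes. Among those higher were Ctsb and Ctsd, endosomal cathepsins (log2 1.42 ± 0.27 and 1.42 ± 0.36), Spi1 (1.23 ± 0.25) and Irf8 (1.08 ± 0.24), transcription factors of B and myeloid cells, and Ifi30, a thiol reductase of endosomes (1.13 ± 0.24). Lgmn, an asparagine endopeptidase, was higher by 0.75 ± 0.26. Ctsl (-1.61 ± 0.32) and Creb1 (-0.93 ± 0.27), which binds class II promoters, were lower.

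Against T cells, 14 of 23 were higher and 2 lower in B cells, beside 21.5% and 19.3% of all genes. Irf8 differed by 5.34 ± 0.14, Lgmn by 4.23 ± 0.22 and Ifi30 by 4.01 ± 0.10. The 2 lower were Ctsd (-2.54 ± 0.13) and Irf1 (-0.75 ± 0.11), named after their values were seen. Against conventional dendritic cells, 4 of 23 were higher and 5 lower in B cells, beside 10.3% and 5.14% of all genes. Ctsb (-1.39 ± 0.38), Spi1 (-1.28 ± 0.29) and Ifi30 (-1.20 ± 0.21) were lower in B cells, and March1, the ubiquitin ligase that removes class II from the surface (1.69 ± 0.45), and Lgmn (1.68 ± 0.62) were higher. The other 2 called higher, Irf4 and Nfyb, had 0 counts in dendritic cells and passed the filter on low counts only through B cells. Against myeloid cells, 2 of 14 were higher and 9 lower in B cells, beside 25.5% and 24% of all genes. Ctsb differed there by -3.95 ± 0.17 and Ctsd by -3.07 ± 0.28. The counts against T and myeloid cells may include genes that passed the filter on low counts only through the gate where they are high.

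Over 34 library by gate sums of at least 10 cells, other genes were ranked by how their level followed that of the summed members, as Pearson's r on log2(CPM + 50). Cd74 is the largest part of that sum, with 117625 counts in B-gated cells against 32265 of H2-Aa, so that the ranking mostly follows Cd74. Of 3469 other genes with a mean of at least 50 CPM, the 5 most alike were Ctsh (0.911), Napsa (0.895), Ly86 (0.893), Unc93b1 (0.874) and Ctsz (0.858). The sums share libraries and depth, so these values are a description.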

How the data were processed

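The authors deposited raw whole-number counts per gene symbol and cell barcode for each of 6 libraries; no normalization was applied, per the values. The labels name the build mm10, per the submitters' processing notes. Aligner, annotation, strand setting, collapse of molecular identifiers and cell calling: not given in the sources used here. The members and lists were chosen with earlier results of these data known.

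A cell was kept with 200 or more genes and no more than 20% of its counts mitochondrial. A gate needed 2 marker counts (3 for plasma cells) and 0 counts of other lists, with these exceptions. The plasma gate excluded T markers alone, and other gates did not need plasma markers at 0. The conventional dendritic gate allowed myeloid counts up to its own, and the myeloid gate a lone conventional dendritic count. The plasmacytoid gate allowed myeloid and conventional dendritic counts. T and NK gates allowed plasmacytoid counts, and NK also conventional dendritic ones. No doublet caller was run. Apart from these exceptions the gates leave out cells with mixed markers, and cells with the most counts were removed in an alternative. Libraries shared few barcodes, and no pair of libraries agreed within sampling noise. Counts were summed per library and gate (at least 10 cells) and tested with edgeR 4.0.16 in R 4.3.3: trimmed-mean (TMM) scaling, filterByExpr, quasi-likelihood test, Benjamini-Hochberg adjustment over all genes tested, threshold 0.05. Gate comparisons had the library as a block. The scripts were tested on simulated data with 200 changed genes. Alternatives were DESeq2 1.42.0, other scaling, filters and gates, a replicate block, and each library left out. Same-numbered libraries deviated together over all cells (correlations 0.565, 0.446 and 0.356) and less in B cells (0.137, 0.136 and 0.034); the number marks a different extraction text in the labels. Intervals for counts are exact and cover counting error only. Named were all members, list genes past the threshold (at most the 8 largest folds) and the 5 genes most alike. A planned comparison of 2 B cell subsets is not reported here.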

Additional observations from a re-analysis of the deposited data

Results flagged for a closer look

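The B to T fold of Cd74 passed the test of a difference between protocols: it was larger in standard 5′ than in 3′ by 1.51 on the log2 scale (edgeR interaction test, adjusted p = 7.48e-11). The T-gated level of 3′ replicate 1, at 303 CPM, lay above the other T-gated levels (46.1 to 131 CPM), and 92 of its 123 counts came from 1 cell. Without 3′ replicate 1 the difference was -0.42 (adjusted p = 1), and without T cells of 5 or more Cd74 counts it was 0.77 (0.814). It did not pass without standard 5′ replicate 2 (1.41, 0.443) or in cells with at least 300 genes (1.62, 1).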

How the results depend on the processing

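Of 1229 member values recomputed under alternatives (without modified against standard 5′ over all cells and, of the B to T ratios, with Cd74 in standard 5′ against 3′ alone), 1110 kept their direction and their side of the threshold, 66 lost and 25 gained a call, and 28 changed sign. These sign changes were of values that had not passed, except that of Cd74 in the B to T ratio. The cause was not tested in any case. The 1229 values include members that passed the filter on low counts only through B cells.

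Counts of genes called, over all kept cells, went from 2689 (standard 5′ against 3′) to 1690 with at least 300 genes per cell, 4127 with the replicate block and 1584 in DESeq2. For modified 5′ against 3′ they went from 2124 to 1310, 3820 and 1258. Between the 5′ protocols 0 became 65 with no filter, 21 with the replicate block and 1 in DESeq2. In B cells DESeq2 called 1003 in place of 2565 and 900 in place of 2397, and between the 5′ protocols 0 in place of 2, where no filter gave 13, removal of the deepest 5% of cells 14, and 1 count of another list allowed 15. B against NK went from 440 to 1738 (no filter), 695 (300 genes) and 795 (gate minimum 3), and B against myeloid from 800 to 2913 and 454 (no filter, 300 genes). B against conventional dendritic cells went from 843 genes and 6 members to 1285 and 2 (no filter), 472 and 2 (deepest cells removed) and 511 and 3 (gate minimum 3). These member counts include H2-DMb2 and H2-Ob, which passed the main filter on low counts only through B cells. The B to T ratio went from 10 genes and 1 member to 2 and 0 (300 genes), to 4 genes (gate minimum 3) and to 0 members (T cells with 5 or more Cd74 counts removed). For modified against standard 5′ it went from 0 to 3 genes with the deepest cells removed.

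Signs changed for H2-DMb1 in standard 5′ against 3′ (-0.034, 300 genes). Between the 5′ protocols H2-DMb1 became -0.0017 (DESeq2 size factors), -0.0055 (no filter), -0.016 (gate minimum 3) and -0.0090 (replicate block). There Cd74 became 0.017, H2-Ab1 0.020 and H2-Ob 0.19 (300 genes), and H2-Ob 0.0015 (deepest cells removed). Against dendritic cells Cd74 became 0.33 (no filter), 0.19 (deepest cells removed) and 0.040 (gate minimum 3), and Ciita 0.43 (deepest cells removed).

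With each library left out in turn, genes called ranged from 221 to 2763, 416 to 2216 and 0 to 1 over all cells (standard against 3′, modified against 3′, modified against standard), with 0 to 8 and 0 to 7 members in the first pair. In B cells they ranged from 394 to 2569 (4 to 9 members), 1263 to 2537 and 7 to 30. They ranged from 382 to 899 against NK, 634 to 1578 against myeloid and 516 to 805 against dendritic cells, and 0 to 16 (0 to 4 members) and 0 to 4 for the B to T ratios. Between the 5′ protocols the log2 fold in B cells ranged from -0.30 to 0.073 for Cd74, -0.11 to 0.56 for Ciita, -0.18 to 0.27 for H2-Aa, -0.42 to 0.26 for H2-Ab1 and -0.091 to 0.31 for H2-DMa. It ranged from -0.10 to 0.25 for H2-DMb1, -0.27 to 0.12 for H2-DMb2, -0.39 to 0.0055 for H2-Eb1 and -0.14 to 0.17 for H2-Ob. The B to T ratio of Cd74 ranged from -0.42 to 2.71. An arm left with 1 library is assumed to vary like the others. Alternatives for plasmacytoid dendritic cells were not run, as no fit was made.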
